A study of Mus musculus with 6 samples.

Results

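Tight junctions are the seals between endothelial cells that give brain vessels their barrier. The genes described here are 9 tight junction genes, chosen by name from the gene table: Cldn5, Cldn12, Ocln, Tjp1, Lsr, Marveld2, F11r, Jam2 and Esam. They are 9 of 54532 genes in the table, and all 9 passed the filter on low values that left 11277 genes for testing. RNA-seq was run on brain endothelial cells of Df(h22q11)/+ mice, which carry a heterozygous deletion that models 22q11.2 deletion syndrome. Cldn5 lies in the deleted interval, so each library comes from cells with a single copy of that gene. The untreated group ate irradiated base chow, and the bezafibrate group ate chow with 0.5% bezafibrate, a fibrate drug that activates PPAR nuclear receptors, for 4 weeks. Mice were 12 to 16 weeks old, and both groups carried the deletion. Each group has 3 libraries, each pooled from 3 brains of the same sex. In untreated mice these are female pools F_1 and F_2 and male pool M_1, and in treated mice female pool F_1 and male pools M_1 and M_2. Values per library are given in that order throughout, untreated first. Live cells positive for CD31 and negative for CD45 and PDGFRb had been sorted. Wild-type libraries were not analysed here, so the effect of losing a Cldn5 copy was not measured, and the comparison made is that of bezafibrate with base chow.

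In a tight junction, claudins polymerise into strands between neighbouring cells and set which solutes pass, and claudin-5 is the leading claudin of brain endothelium. Occludin (Ocln) and tricellulin (Marveld2) are MARVEL-domain proteins, and tricellulin is held at the corners where cells meet by angulin-1 (Lsr). The immunoglobulin-fold adhesion proteins JAM-A (F11r), JAM-B (Jam2) and ESAM (Esam) lie beside the strands, and ZO-1 (Tjp1) ties claudins, occludin and JAMs to actin inside the cell. Levels below are FPKM (sequenced fragments per kilobase of gene length, divided by a size for each library), a scale per length on which genes can be set side by side.

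The table and the GENCODE M21 annotation of GRCm38 give the same start and end for each of the 9 genes. Cldn5 (ENSMUSG00000041378) is a single exon of 1416 bases on the plus strand, chr16:18776847-18778262. Ocln (ENSMUSG00000021638, chr13:100496507-100552718) and Marveld2 (ENSMUSG00000021636, chr13:100595957-100616971) both lie on the minus strand of chromosome 13, 43238 bases apart with the predicted genes Gm48596 and Gm8847 between them. Lsr (ENSMUSG00000001247, chr7:30957770-30973464) and Tjp1 (ENSMUSG00000030516, chr7:65296165-65527781) are on the minus strand of chromosome 7. Of the exon bases of Lsr, 44.7% are also exon of Gm17077 or Gm4673 on the opposite strand. Whether counting used strand is not stated in the labels, so reads of Lsr and of these partners cannot be told apart. The other genes share no exon bases with another gene. They are F11r (ENSMUSG00000038235, chr1:171437535-171464603), Cldn12 (ENSMUSG00000046798, chr5:5489537-5514958, minus strand), Esam (ENSMUSG00000001946, chr9:37528078-37538319) and Jam2 (ENSMUSG00000053062, chr16:84774123-84825928).

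Promoters were read from RefSeq (GRCm38.p6) as 250 bases before and 50 bases from the start site on, and 7 of the 9 genes matched, with 11 promoters. Those of Cldn5, of the neighbours Ocln and Marveld2, and of Lsr are shown because these genes include the most abundant claudin and genes with opposite patterns across libraries. They are Cldn5 at chr16:18776597-18776896 (plus strand), Ocln at chr13:100552669-100552968, Marveld2 at chr13:100616922-100617221 and Lsr at chr7:30973420-30973719 (minus strand). Capitals mark the letters GGGCGG (the GC box of SP and KLF factors), CCGGAA (the core of ETS factor sites), CAGGTG (an E-box that Snail-type factors read) and AGGTCA (the half-site of nuclear receptors), on either strand.
Cldn5: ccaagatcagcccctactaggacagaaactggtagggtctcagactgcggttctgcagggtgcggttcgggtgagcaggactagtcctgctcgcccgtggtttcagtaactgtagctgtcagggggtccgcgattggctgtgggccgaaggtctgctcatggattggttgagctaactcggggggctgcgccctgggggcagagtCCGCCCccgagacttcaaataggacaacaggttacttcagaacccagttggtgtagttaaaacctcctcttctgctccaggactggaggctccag
Ocln: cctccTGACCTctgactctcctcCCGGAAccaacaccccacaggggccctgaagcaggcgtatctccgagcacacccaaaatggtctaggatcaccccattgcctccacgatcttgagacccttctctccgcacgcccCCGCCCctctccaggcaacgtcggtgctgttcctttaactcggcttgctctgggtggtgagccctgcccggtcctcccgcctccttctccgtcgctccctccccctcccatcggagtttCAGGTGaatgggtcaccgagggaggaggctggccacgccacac
Marveld2: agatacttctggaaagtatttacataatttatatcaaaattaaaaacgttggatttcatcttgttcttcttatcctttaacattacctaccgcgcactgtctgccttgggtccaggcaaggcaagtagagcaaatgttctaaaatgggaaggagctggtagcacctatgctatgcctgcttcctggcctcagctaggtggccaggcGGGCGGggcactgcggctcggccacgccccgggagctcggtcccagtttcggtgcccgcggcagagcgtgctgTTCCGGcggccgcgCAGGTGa
Lsr: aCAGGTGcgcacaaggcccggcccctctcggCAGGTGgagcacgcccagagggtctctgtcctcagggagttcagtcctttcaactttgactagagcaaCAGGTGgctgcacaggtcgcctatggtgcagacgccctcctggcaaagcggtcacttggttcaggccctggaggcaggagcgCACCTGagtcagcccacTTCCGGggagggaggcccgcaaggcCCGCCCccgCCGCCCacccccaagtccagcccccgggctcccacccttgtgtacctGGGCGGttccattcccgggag
The GC box is in 10 of the 11 promoters, with a match in all 7 genes, against 35.7% of 32851 RefSeq promoters of this length. CCGGAA is in 7 of 11 (Cldn12, Lsr, Marveld2 and Ocln) against 14.9%, and CAGGTG is in 6 of 11 (F11r, Lsr, Marveld2 and Ocln) against 20.2%. Promoters of the same gene overlap, and the 4 Lsr matches to CAGGTG lie in a single window. A Cldn12 window had 45.3% G and C, and the other windows 54.0% to 68.0%, against a median of 52.7% over all promoters. The shares were not adjusted for base composition, which affects how often such letters occur. The Cldn5 window holds the GC box and none of the other 3. AGGTCA is found in 1 promoter, that of Ocln, against 16.3% of all promoters. The direct repeat AGGTCANAGGTCA, the element that PPAR and RXR bind together, is in 0 of 11 and in 0.0396% of all promoters. GTAAACA (forkhead), CTTTGAT (TCF and LEF), AACAAT (SOX), CACGTG (E-box) and ACCGGAAG (a longer ETS form) are in 0 of 11, against 3.65%, 3.73%, 10.7%, 7.15% and 2.30%. TATAAA is in both Marveld2 promoters and in 13.6% of all. A match describes letters in these windows, not binding.

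The libraries had 16858130 to 20228619 recovered reads, and between 11060 and 11387 genes reached an FPKM of 1. All 16 endothelial markers passed the filter, as did all 10 pericyte markers, all 11 astrocyte markers and 11 of 12 oligodendrocyte markers. The endothelial markers had a summed level of 10248 to 14397 FPKM in untreated and 9022 to 12899 in bezafibrate libraries. Markers of other cells summed to 198 to 355 and 196 to 273 FPKM for pericytes, 66.4 to 91.3 and 77.3 to 104.7 for smooth muscle, 53.4 to 79.8 and 39.8 to 65.7 for astrocytes, 29.4 to 37.4 and 22.6 to 33.1 for microglia, 13.9 to 20.0 and 14.6 to 17.8 for neurons, 2.45 to 2.83 and 1.89 to 3.31 for fibroblasts, and 45.4 to 298 and 51.4 to 148.8 for erythrocytes. The 11 oligodendrocyte markers other than Enpp2, mostly Mal, summed to 499 to 1040 and 424 to 903, and the ependymal and choroid plexus markers, mostly Ttr, to 424 to 479.9 and 468 to 1057. In each cell type list, 0 markers were at 0 in all libraries. Untreated M_1 and bezafibrate F_1 stood apart, with scores of 30.3 and 24.4 on the leading principal component (39.3% of the variance) against -22.6 to 1.62 in the other 4. They also had the highest composition ratio (summed reads divided by the library size used for scaling), 1.09 and 1.06. The ratio was 0.950 and 1.03 in the untreated female pools and 0.888 and 0.897 in the bezafibrate male pools.

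Cldn5 was by far the most abundant of the 9 transcripts. It ranked 31 of the 11277 genes tested by mean FPKM and made up 51.0% to 62.2% of the summed FPKM of the 9 genes in each library. The order by mean FPKM was Cldn5, Esam, Lsr, Jam2, Tjp1, F11r, Ocln, Marveld2 and Cldn12. Cldn5 was 2.09 to 3.34 times Esam, and Esam 2.85 to 4.44 times Lsr, in every library. Lsr was above Jam2 in 4 of 6 libraries and Tjp1 above F11r in 4 of 6, and the ranges of these neighbours overlapped, so neither pair was separated. For the other 6 neighbouring pairs the order was the same in 6 of 6 libraries. Ocln stood 3.06 to 9.31 times above Marveld2, and Marveld2 1.27 to 3.27 times above Cldn12, the second claudin of the set and its lowest transcript.

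**Figure D1:**
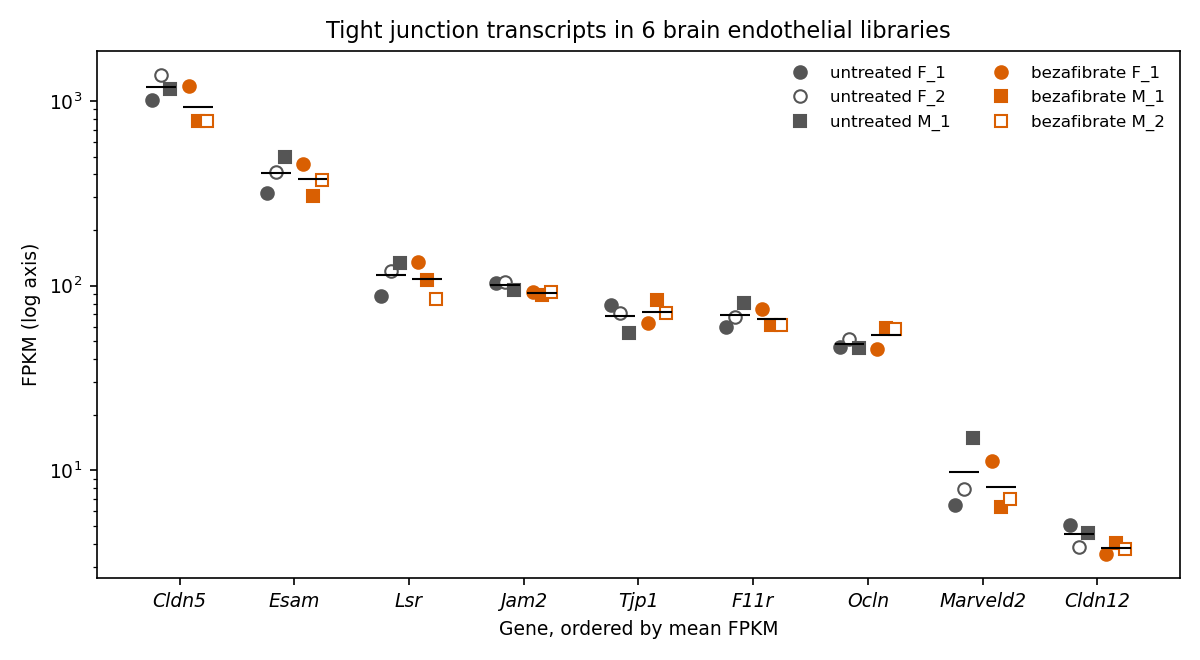
Level of 9 tight junction genes in 6 libraries, as FPKM on a log axis, with genes ordered by mean FPKM. Each point is a library pooled from 3 brains (circles female, squares male, grey untreated, orange bezafibrate), and each bar is the mean of 3 libraries. Cldn5 lies between 774 and 1386 FPKM, above every other gene, and the grey and orange points overlap for each gene except Jam2.

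Bezafibrate changed none of the 9 transcripts past the threshold. limma called 0 of 9 at an adjusted p under 0.05, where the background was 0.00887% of all genes tested (1 of 11277). In this main fit the count of the 9 at an unadjusted p under 0.05 was also 0, where 472 of all 11277 genes lay under it. By limma-voom on recovered reads, 0 were called. Of the 9 log2 differences (bezafibrate minus untreated), 7 were below 0 and 2 above, with a median of -0.11. Over all genes tested the median was -0.01 and 48.2% lay above 0. This lean depended on scaling: after rescaling to TPM, 55.6% of the 9 and 68.5% of all genes lay above 0, with medians of 0.0074 and 0.09. With quantile scaling, without untreated M_1 or with the composition ratio as a covariate, 55.6% of the 9 were also above 0, with medians of 0.02, 0.04 and 0.05. Each of the 9 adjusted p-values from limma was 0.999. In bulk RNA, fewer cells of a type and less RNA per cell cannot be told apart.

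The claudins had lower means with bezafibrate, within the spread between libraries. Cldn5, which seals the barrier against small molecules, had 1010, 1386 and 1154 FPKM in the untreated pools. With bezafibrate it had 1206, 774 and 783 FPKM. Both bezafibrate male libraries lay below all the others, while the bezafibrate female library lay above 2 of the 3 untreated ones, so the groups overlapped. The group means were 1183 ± 189.6 and 921 ± 246 FPKM (SD, n = 3 each), and the log2 difference was -0.38 (SE 0.225, 95% interval -0.91 to 0.14). Cldn5 ranked 1240 of 11277 by p and was the largest of the 9 differences in size. It was negative in 20 of 20 alternative fits, from -0.61 with array weights to -0.16, and stood at -0.59 without bezafibrate F_1. Without the libraries that stood apart, untreated M_1 and bezafibrate F_1, it was -0.60 (SE 0.224, limma adjusted p = 0.533). That leaves 2 untreated female against 2 bezafibrate male libraries. The unadjusted limma p of Cldn5 was 0.0124 with array weights, 0.0167 without bezafibrate F_1 and 0.0316 without both libraries. It was not called in these fits, with limma adjusted p-values of 0.362, 0.459 and 0.533. With 20841 to 34960 reads per library, counting error was small beside the spread between libraries.

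Cldn12, a claudin without the usual end for binding ZO proteins, had 5.08, 3.84 and 4.59 FPKM without and 3.53, 4.05 and 3.76 with bezafibrate. The groups overlapped through untreated F_2. Its difference was -0.20 (SE 0.148, 95% interval -0.54 to 0.15), negative in 19 of 19 alternative fits and -0.15 without the libraries that stood apart. Without untreated F_1 it was -0.12, and with array weights -0.08. It rested on 269 to 432 reads per library, the fewest of the 9.

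The MARVEL protein genes had differences of opposite sign, neither past the threshold. Ocln had 46.8, 51.7 and 45.9 FPKM without and 45.2, 58.8 and 58.2 with bezafibrate. The bezafibrate male libraries were above all others and bezafibrate F_1 was the lowest of the 6, whereas Cldn5 was lowest in the bezafibrate male libraries. The summed ependymal and choroid plexus markers were highest in these same bezafibrate male libraries, at 636 and 1057 FPKM against 424 to 479.9 in the other 4. Most of these sums was Ttr, at 540 and 919 FPKM. Of the 10 tested markers of that list 8 had a difference above 0. Ttr, Enpp2, Clic6, Kl and Folr1 were higher in both bezafibrate male libraries than in any other. Igfbp2, Foxj1, Aqp1 and Kcnj13 were lower in bezafibrate M_1 (10.3, 3.16, 1.66 and 1.00 FPKM) than in untreated F_1 (10.6, 4.42, 2.56 and 1.84). Among the claudins of that list, Cldn2 had 1.00 and 1.12 FPKM in the bezafibrate male libraries against 0.0668 to 0.456. Cldn1 had 0.631 and 0.736 there against 0.252 to 0.499. Neither passed the filter, and Cldn2 had as few as 4 reads. Cldn3 was not raised there, at 0.710 and 1.18 FPKM against 1.07 to 2.18. The part of these markers in the Ocln and Cldn5 values was not tested. The Ocln difference was 0.16 (SE 0.151, 95% interval -0.20 to 0.51), the largest of the 2 above 0 and positive in 20 of 20 alternative fits. Without the libraries that stood apart it was 0.24. It was 0.28 without bezafibrate F_1, 0.09 without bezafibrate M_1 and 0.10 without bezafibrate M_2. Marveld2 had 6.47, 7.90 and 15.0 FPKM in the untreated pools and 11.22, 6.31 and 6.99 in the treated ones. Its 2 highest values were in untreated M_1 and bezafibrate F_1. The highest was 2.38 times the lowest, the widest range of the 9 genes. The difference of -0.19 (SE 0.316, 95% interval -0.93 to 0.54) turned to 0.13 without untreated M_1 and was -0.09 without both of those libraries. Lsr, which recruits tricellulin to tricellular corners, had 87.7, 119.5 and 133 FPKM without and 134, 107 and 84.3 with bezafibrate. Its range was almost the same in each group. The difference was -0.07 (SE 0.225, 95% interval -0.59 to 0.45), and it turned to 0.06 without untreated M_1 and to 0.10 without bezafibrate M_2.

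Of the immunoglobulin-fold adhesion genes, Jam2 stayed nearly level. It had 103.7, 104.2 and 94.2 FPKM without and 92.9, 88.5 and 92.9 with bezafibrate. Every bezafibrate library lay below every untreated one, which makes Jam2 the 1 gene of the 9 whose groups did not overlap. Over all genes tested, 4.13% had such groups with bezafibrate lower and 4.29% with bezafibrate higher. The difference was -0.14 (SE 0.124, 95% interval -0.42 to 0.15), and the nearest libraries of the groups had 94.2 and 92.9 FPKM. The sign was negative in 20 of 20 alternative fits, with the nearest to 0 at -0.0074 after quantile scaling. The SD of Jam2 within groups was 0.064 on the log2 scale, and 1.81% of genes tested had a smaller one, against 89.7% for Marveld2.

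F11r, which also serves leukocyte adhesion, had 60.0, 67.8 and 80.9 FPKM in the untreated pools and 74.5, 60.9 and 61.6 in the treated ones. Esam, an adhesion protein of endothelium and platelets, had 316, 414 and 497 FPKM without and 453, 305 and 374 with bezafibrate. For both genes untreated M_1 was highest and bezafibrate F_1 second. The differences were -0.08 for F11r (SE 0.162, 95% interval -0.46 to 0.30) and -0.11 for Esam (SE 0.222, 95% interval -0.63 to 0.41). Without untreated M_1 they turned to 0.04 for each, and without bezafibrate M_1 Esam was at 0.03. The scaffold gene Tjp1 had 78.3, 71.4 and 55.5 FPKM in the untreated pools and 62.6, 83.6 and 70.7 in the treated ones. Here untreated M_1 was lowest and bezafibrate F_1 second lowest, the reverse of Esam and F11r. Its difference of 0.08 (SE 0.180, 95% interval -0.34 to 0.50) turned to -0.06 without untreated M_1 and to -0.03 without bezafibrate M_1. Without both libraries that stood apart, Lsr, F11r, Esam and Tjp1 were at -0.11, -0.06, -0.10 and 0.04.

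**Figure D2:**
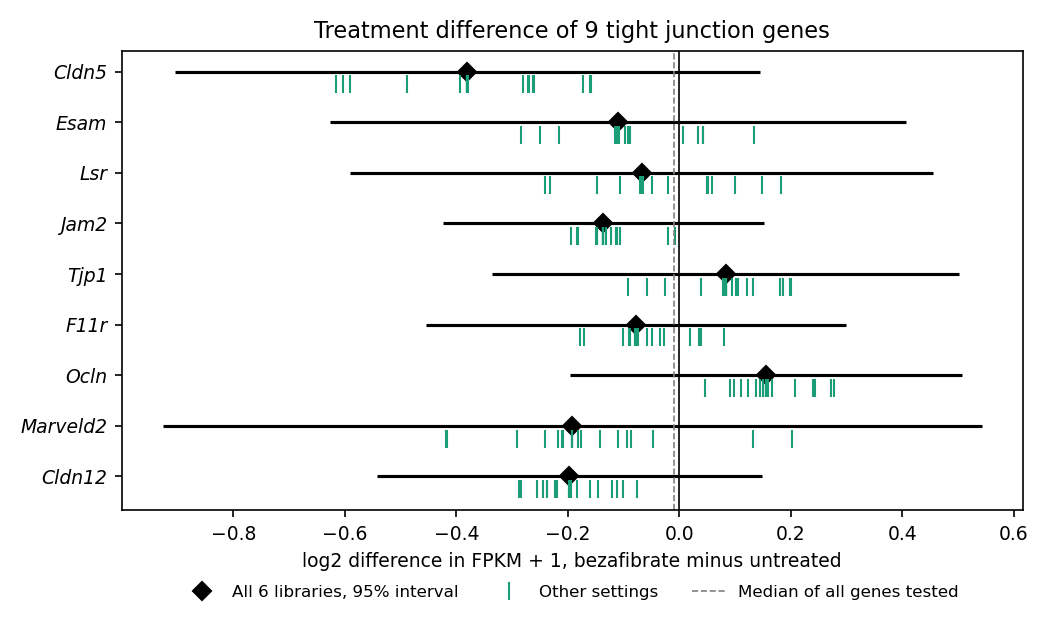
Log2 difference of each gene, bezafibrate minus untreated, on the log2(FPKM + 1) scale. Diamonds and lines are the limma estimate from 6 libraries with its 95% interval, green marks the estimates under other settings, and the dashed line the median of all genes tested (-0.01). Every interval crosses 0, and the marks of Cldn5, Jam2, Ocln and Cldn12 stay on 1 side of 0.

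Ratios within a library compare genes without the scaling between libraries. Cldn5 over Ocln was 21.6, 26.8 and 25.2 without and 26.7, 13.2 and 13.5 with bezafibrate. Cldn5 over Tjp1 was 12.9, 19.4 and 20.8 without and 19.3, 9.26 and 11.1 with bezafibrate. Both ratios were lowest in the bezafibrate male libraries, with bezafibrate F_1 inside the untreated range. Marveld2 over Ocln was 0.138, 0.153 and 0.327 in the untreated and 0.248, 0.107 and 0.120 in the treated pools, highest in the libraries that stood apart. The two-sided exact permutation p of these ratios was 0.3, 0.2 and 0.5, where 3 against 3 libraries cannot give less than 0.1. For all 8 ratios compared, the adjusted p of the exact permutation test was 0.8.

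Across libraries the genes fell into patterns that followed the composition ratio. The Pearson r of log2(FPKM + 1) with that ratio over 6 libraries was 0.87 for Cldn5, 0.88 for Esam, 0.83 for Lsr, 0.93 for F11r and 0.89 for Marveld2. It was -0.84 for Tjp1 and -0.82 for Ocln, and 0.25 for Jam2 and -0.01 for Cldn12. Among 3695 protein-coding genes with a mean FPKM of at least 10, 26.3% had an r of at least 0.8 and 5.68% of at most -0.8, with a median of 0.45. These values describe 6 libraries that share reads and scaling with the ratio itself, and what sets the ratio was not tested. Between genes, F11r and Marveld2 had an r of 0.98, Esam and F11r 0.94, and Esam and Marveld2 0.92. Tjp1 ran against all 3, at -0.96 with Esam, -0.96 with Marveld2 and -0.94 with F11r. Cldn5 and Ocln had an r of -0.72. The endothelial marker sum was also highest in untreated M_1 and bezafibrate F_1 (14397 and 12899 FPKM, against 9022 to 11590 in the other libraries), and so was the oligodendrocyte sum (1040 and 903, against 424 to 599). Single endothelial markers differed in direction. Slc2a1, the most abundant of them, was highest in untreated M_1 and bezafibrate F_1 (5752 and 5337 FPKM), whereas Tek was lowest there (124 and 131 FPKM). The part of these sums in the results was not tested. With the composition ratio as a covariate, a fit added after the data were seen, the Cldn5 difference was -0.16 and Ocln 0.05, and Esam, F11r, Lsr, Marveld2 and Tjp1 changed sign.

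**Figure D3:**
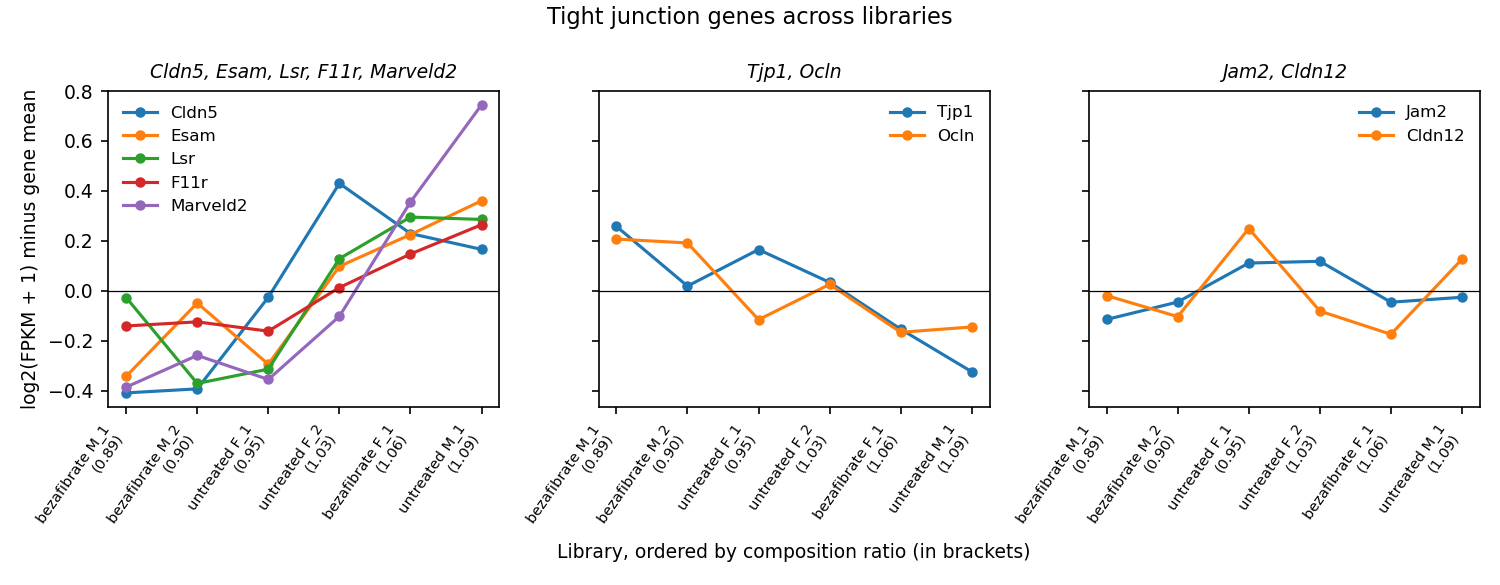
Level of each gene in each library, as log2(FPKM + 1) minus the mean of that gene, with libraries ordered by composition ratio (in brackets). Panels group genes by their correlation with the ratio (above 0.8, below -0.8, or between): Cldn5, Esam, Lsr, F11r and Marveld2 tend to be higher on the right, Tjp1 and Ocln lower, and Jam2 and Cldn12 show little slope.

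The treatment difference was then read within each sex, which rests on 1 bezafibrate library against 2 untreated in females and 2 against 1 in males. Esam, Lsr, F11r and Marveld2 were higher with bezafibrate in females and lower in males in every library. This was 4 of 9 genes, where 21.7% of all genes tested did the same. Tjp1 and Ocln did the reverse, 2 of 9 against 20.0% of all genes, and the other 3 genes did neither. Marveld2 had a log2 difference of 0.58 in females and -1.07 in males. Its difference between the sexes was -1.65 (SE 0.290, 95% interval -2.35 to -0.95), with a limma adjusted p = 0.0585, just outside the threshold. Tjp1 had -0.25 and 0.46, a difference between the sexes of 0.72 (SE 0.276, limma adjusted p = 0.209). Cldn5 had 0.03 in females and -0.57 in males, a difference of -0.59 (SE 0.383, limma adjusted p = 0.419).

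For the interaction of treatment and sex limma called 0 of 9 genes, where 0.665% of all genes were called (75 of 11277). Marveld2 and Tjp1 were the 2 at an unadjusted p under 0.05, where 2398 of all 11277 genes lay under it. Marveld2 was called by limma-voom (adjusted p = 0.00547), with a filter at an FPKM of at least 5 (adjusted p = 0.0173) and without untreated F_2 (adjusted p = 0.0346). Scaling moved the size of these differences between the sexes. With quantile scaling Esam, Lsr and F11r were at -0.37, -0.35 and -0.15 and Cldn5 at -0.29, while Tjp1 was at 1.21, Ocln at 0.92 and Marveld2 at -1.56. None was called there. The untreated male and the bezafibrate female libraries are each the single library of their cell, and they are the ones that stood apart. The interaction, these libraries and their composition ratio therefore cannot be told apart. Sex itself (male minus female, with treatment as a covariate) gave 0 calls in 9 genes by limma and 0 by limma-voom, with 0 at an unadjusted p under 0.05. The background there was 0.0266% called (3 of 11277), and 331 of 11277 at an unadjusted p under 0.05.

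**Figure D4:**
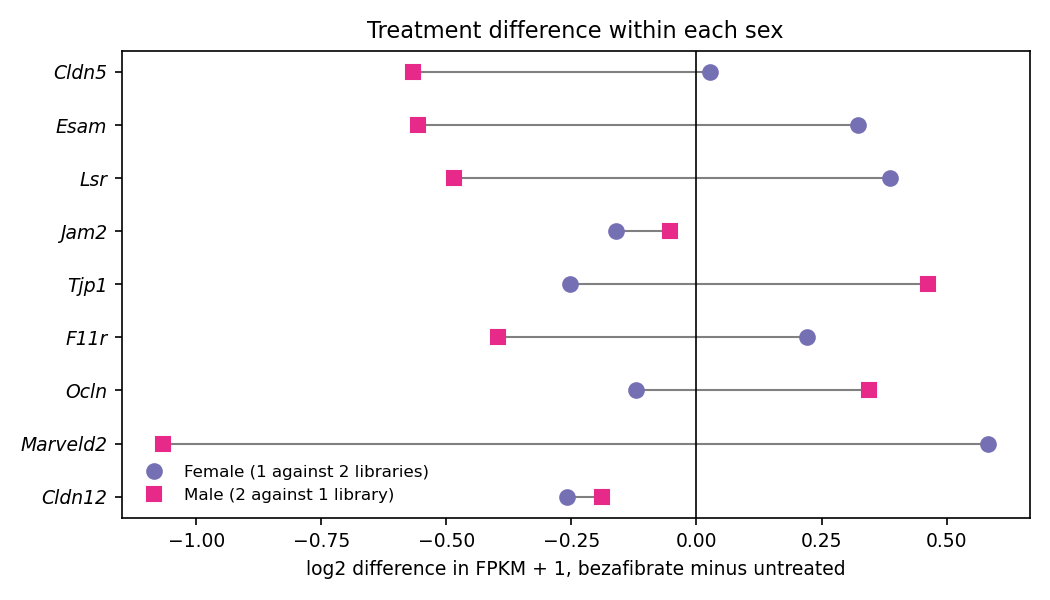
Log2 difference between bezafibrate and untreated libraries within females (circles, 1 library against 2) and within males (squares, 2 libraries against 1), on the log2(FPKM + 1) scale; lines join the sexes. Marveld2 spans from -1.07 to 0.58, Tjp1 and Ocln run the other way from Esam, Lsr and F11r, and Jam2 and Cldn12 lie on the same side of 0 in both sexes.

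Other claudins and strand proteins were low in these cells. Of 36 symbols listed, 35 were found and 9 were tested, with 0 called, 2 above 0 and 7 below, and a median log2 difference of -0.16. The most abundant was Cldnd1, a claudin-domain protein, at a mean of 21.9 FPKM over the 6 libraries, then Marveld1 at 18.3 and Cldn11, the claudin of myelin, at 14.8. Cldn11 is itself an oligodendrocyte marker, and its source in these libraries was not tested. Ildr2 (angulin-3) had 5.71, Cldn6 4.12 and Igsf5 3.44 FPKM. Cldn3, long described at the blood-brain barrier, had 1.45 ± 0.630 FPKM without and 1.12 ± 0.378 with bezafibrate (SD, n = 3 each), on at least 19 reads. Cldn9 had 1.85 ± 0.761 and 0.759 ± 0.641 FPKM, with as few as 2 reads in a library. Of the 9 tested genes of this list, Cldn9 and Igsf5 had all bezafibrate libraries below all untreated, and 0 had them all above. Over all genes tested, 4.13% lay lower in this way and 4.29% higher. Cldn5 was thus the 1 claudin above 100 FPKM, and its lowest library (774 FPKM) exceeded the summed level of this whole list, 71.4 to 91.0 FPKM.

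Partners inside the cell also showed no call. Of 28 plaque and polarity genes 21 were tested, with 5 above 0, 16 below and a median of -0.10. Among the highest by mean FPKM were the actin regulator Vasp (102.8), Ybx3 (the ZO-1-associated factor ZONAB, 70.6), Amotl2 (68.2), the cingulin-like Cgnl1 (63.5) and Arhgef2 (24.7). Of 25 regulators of endothelial junctions 24 were tested, with 7 above 0, 17 below, a median of -0.10 and 0 called. They include the transcription factors Sox18 (318 FPKM) and Sox17 (145), VE-cadherin (Cdh5, 276), beta-catenin (Ctnnb1, 234), the GTPase Rap1b (178) and its effector Rasip1 (170.3). Cdh5, Rap1b and Rasip1 had an r of 0.96, 0.97 and 0.99 with the composition ratio over 6 libraries. In all 3 lists, limma found 0 genes at an unadjusted p under 0.05. Over all 11277 genes tested, 472 lay under it and 1 was called, so 0 calls in a list is near the background.

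The nearest tested gene on each side of Cldn5 was Tbx1, a T-box factor 186175 bases before it, and Ufd1, a ubiquitin-pathway gene 33516 bases after it. Tbx1 had 21.9, 33.9 and 27.6 FPKM without and 46.6, 25.4 and 21.2 with bezafibrate. Ufd1 had 5.43, 8.82 and 7.79 FPKM without and 11.198, 5.72 and 5.28 with bezafibrate. Both were highest in bezafibrate F_1, where Cldn5 was second, and their r with Cldn5 over 6 libraries was 0.69 and 0.81. Of 13 tested genes of the interval, Cldn5 among them, 10 lay above 0 and 3 below, with a median of 0.08 and 0 called. Cldn5 had the most negative difference of the 13.

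The protein-coding genes most like Cldn5 across the 6 libraries, by Pearson r of log2(FPKM + 1) among 3694 with a mean FPKM of at least 10, were Cct2 (0.99), Itga5 (0.99), Wac (0.99), Mfng (0.98) and Cttnbp2nl (0.98). Cct2 is a chaperonin subunit, Itga5 the alpha subunit of the fibronectin receptor and Mfng a Notch glycosyltransferase. An r of at least 0.9 with Cldn5 was reached by 97 genes (2.63%). Those most like Tjp1 were Nod1 (0.99), Tiam1 (0.99), Sept11 (0.98), Gbp9 (0.98) and Jtb (0.98), and 91 genes (2.46%) reached 0.9. Tiam1 encodes an exchange factor for Rac, Nod1 an intracellular sensor of bacterial peptidoglycan and Sept11 a septin. The lists for Cldn5 and Tjp1 rest on 6 libraries each and describe likeness only.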

How the data were processed

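Endothelial RNA was measured in 6 libraries (3 per group). Per the labels' protocols, cDNA was made with SMART-Seq HT, libraries with Nextera XT, and single-end reads of 75 bases were de-duplicated and mapped with Salmon. The submitters' processing notes name GRCm38. Not given in the sources used here are the version of Salmon, its annotation, its strand setting and the way values were normalised. The table deposited by the authors holds FPKM per gene with gene lengths. For untreated M_1 the column is numbered differently from the title and was matched by the description of that sample. Columns left unmapped numbered 0.

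FPKM times gene length gave whole multiples of a step in 100% of values (tolerance 0.01 reads), and hence reads and the scaling size of each library. Genes reaching an FPKM of 1 in 3 or more libraries were fitted on log2(FPKM + 1), a scale that understates changes of low genes, with limma 3.58.1 in R 4.3.3 (eBayes with trend). Tests were two-sided, with Benjamini-Hochberg adjustment over all genes and calls under 0.05. Treatment had no covariate, as the labels say the sexes were combined. Sex had treatment as covariate, and the interaction leaves 2 residual degrees of freedom. The fit was tested on simulated data. Replicates are pools of separate animals, and p-values refer to the spread among them. Other settings tried were the pseudocount, filter, scaling, trend, array weights, sex, replicate block and each library left out, plus 3 added after the data were seen: limma-voom, the composition ratio and leaving out both libraries that stood apart.

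The 9 genes and all lists were chosen with earlier results of these data known. The text names all 9, the claudins tested, the 6 most abundant and any called genes of each wider list, the 5 genes most like Cldn5 and Tjp1, and the tested neighbours of Cldn5. An item that this rule would name is not reported here. Of the table's genes, 54409 were in GENCODE M21, 98.3% with the same start and end. Promoters come from RefSeq, and Jam2 and Esam had none there.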

Additional observations from a re-analysis of the deposited data

Results flagged for a closer look

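For 6 of the 9 genes every bezafibrate library lay on one side of the untreated libraries in females and on the other side in males. Over all genes tested, 21.7% were higher with bezafibrate in females and lower in males in this way, and 20.0% did the reverse. The untreated males and the bezafibrate females are each a single library, and these are the libraries that stood apart. The treatment difference in males minus that in females was -0.88 for Esam (0.32 in females, -0.56 in males, limma adjusted p = 0.235), -0.87 for Lsr (0.39 and -0.48, adjusted p = 0.241), -0.62 for F11r (0.22 and -0.40, adjusted p = 0.235) and -1.65 for Marveld2 (0.58 and -1.07, adjusted p = 0.0585). For Tjp1 it was 0.72 (-0.25 and 0.46, adjusted p = 0.209) and for Ocln 0.47 (-0.12 and 0.34, adjusted p = 0.337). With quantile scaling these were -0.37 for Esam, -0.35 for Lsr, -0.15 for F11r, -1.56 for Marveld2, 1.21 for Tjp1 and 0.92 for Ocln, and after rescaling to TPM -0.53, -0.52, -0.27, -1.33, 1.06 and 0.81. In the main limma fit, with its filter at an FPKM of 1, none of the 6 passed the test of the difference itself. There 2 lay under an unadjusted p of 0.05, as did 2398 of all 11277 genes tested. Marveld2 was called by limma with a filter at an FPKM of at least 5 (adjusted p = 0.0173), without untreated F_2 (adjusted p = 0.0346), and by limma-voom.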

How the results depend on the processing

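Over 20 alternative treatment fits (19 for Cldn12), the signs of Cldn5, Jam2, Ocln and Cldn12 did not change, and none of the 9 genes was called. Treatment calls over all genes were 1, and 2 without a trend, 0 with the replicate block, 0 by limma-voom, 0 without both libraries that stood apart, and 0 to 3 with a library left out. Sex calls were 3, and 1 to 4 with a library left out. Interaction calls were 75, and 131 at a pseudocount of 5, 478 without a filter, 571 at an FPKM of at least 5, 199 after rescaling to TPM, 1 with quantile scaling, 0 without a trend, 861 by limma-voom, and 0 to 548 with a library left out. That fit could not be made without untreated M_1 or bezafibrate F_1. Of the 9 genes, 1 (Marveld2) was called for the interaction at an FPKM of at least 5, by limma-voom and with a library left out (0 to 1).

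Treatment differences changed sign in 5 genes, and the cause was not tested. After rescaling to TPM, Esam was 0.0074, F11r 0.0381 and Lsr 0.0489. With quantile scaling they were 0.0417, 0.0187 and 0.0507. With the composition ratio as a covariate Esam was 0.135, F11r 0.0802, Lsr 0.182, Marveld2 0.202 and Tjp1 -0.0919. With a library left out the range was -0.284 to 0.0428 for Esam, -0.178 to 0.0351 for F11r, -0.241 to 0.101 for Lsr, -0.418 to 0.132 for Marveld2, -0.0583 to 0.186 for Tjp1. For the genes whose sign did not change it was -0.591 to -0.261 for Cldn5, -0.183 to -0.111 for Jam2, 0.0909 to 0.277 for Ocln and -0.287 to -0.122 for Cldn12. The interaction of Cldn12 turned to -0.0361 with quantile scaling and ran from -0.0949 to 0.236 with a library left out. With the replicate block Lsr was 0.148 and 0 of the 9 genes were called. For the libraries that share the names F_1 and M_1, deviations from the group means had an r of -0.36 and -0.30. Each of these pairs holds a library that stood apart, so the values cannot decide whether shared names pair libraries. The block is therefore given only here. The SE of the treatment difference ran from 0.124 (Jam2) to 0.316 (Marveld2), against a median of 0.191 over all genes tested.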
